A study of Homo sapiens with 22 samples.

Results

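Interferon-stimulated and DNA-sensing genes were followed through 8 groups of H1299 cells, a cell line from a human lung cancer of the non-small cell kind. The set was made by naming 56 genes for nucleic acid sensors and their signalling, interferon transcription factors, antiviral effectors, ISG15 conjugation, the PARP family and antigen presentation. Of these, 55 were found by Ensembl identifier among the 37908 genes of the count table, with RIGI, CGAS and STING1 also searched under the older symbols DDX58, MB21D1 and TMEM173. CMPK2 was not used here. Every culture carried a doxycycline (DOX)-inducible shRNA to BRCA2, a gene of homologous recombination. Cells kept without DOX are the BRCA2-proficient cells, and cells given 2 µg/mL DOX over 3 days are the BRCA2-deficient cells. DOX was given to the BRCA2-deficient cells only, so that DOX and BRCA2 loss cannot be told apart. In each background, cells received control siRNA (untreated), control siRNA with 250 nM LY2090314 for 24 h (GSK3i, an inhibitor of the kinase that targets β-catenin for degradation), siRNA against β-catenin (siβ-catenin), or both siβ-catenin and GSK3i. There were 2 libraries each for untreated and siβ-catenin BRCA2-proficient cells (replicates 2 and 3) and 3 for each of the other 6 groups, 22 in all. The study describes its replicates as independent experiments with 1 cell line.

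DNA in the cytosol is bound by cGAS, which makes a cyclic dinucleotide that activates STING, while RIG-I and MDA5 (IFIH1) bind RNA. Both routes act through the kinase TBK1 and the factor IRF3 to induce interferon. Interferon in turn acts through JAK kinases on a complex of STAT proteins and IRF9 that binds interferon-stimulated response elements (ISREs) at antiviral and antigen presentation genes. These genes also have a low tonic level in many tumour lines, and loss of BRCA2 is known to leave DNA in the cytosol.

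Of the 55 genes found, 47 had enough counts for testing in every comparison and 8 did not. The untested genes were MX1, MX2, OAS1, OAS2, RSAD2, BST2, TRIM22 and XAF1, antiviral genes that are strongly induced by interferon in many cells. RSAD2 (viperin) had 1 read in all 22 libraries together, MX2 had 3, XAF1 had 10, OAS1 had 21 and MX1 had 38. OAS2 reached 11.3 normalised counts at most, in an untreated BRCA2-deficient library. Levels are given here as normalised counts, that is, counts divided by size factors over all libraries. Of the interferon genes, IFNB1 and IFNL1 were nearly silent. IFNB1, which encodes interferon-β, was at 0 in 18 of 22 libraries and did not exceed 1.02 normalised counts, and IFNL1 was at 0 in 20, whereas the receptor genes IFNAR1 and IFNAR2 had medians of 1765 and 384 normalised counts. IFNE, a type I interferon gene known from epithelium of the reproductive tract, was above 0 in all 22 libraries, at 7.70 to 37.3 normalised counts.

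Among the tested genes, B2M, HLA-B, HLA-E and HLA-C had the highest levels. As RPKM, reads scaled to the length of the canonical transcript and to library size, B2M, the light chain of class I molecules, had a median level over 22 libraries of 366 RPKM (range 274 to 506). HLA-B followed at 199.9 RPKM (128 to 318), HLA-E at 105 RPKM (61.8 to 178) and HLA-C at 89.5 RPKM (49.6 to 139), so that the ranges of neighbours in this order overlapped. ISG15, a ubiquitin-like modifier, was at 57.9 RPKM, followed by IRF3 (36.7 RPKM), ADAR (34.5 RPKM), PSMB8 (32.0 RPKM) and TRIM25 (30.9 RPKM). STING1 (19.9 RPKM, 7.71 to 60.1) had a range over libraries that was wider than that of CGAS (16.4 RPKM, 9.86 to 23.5). The lowest tested genes were IRF9, OASL, SAMD9L and IFI44L, at 0.612, 0.463, 0.447 and 0.22 RPKM. The values of IRF9, OASL and IFI44L rest on few reads, with medians of 24.0, 35.5 and 30.6 normalised counts. SAMD9L, whose canonical transcript has 7150 bases, had a median of 74.8 (18.2 to 287).

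Before the comparisons, each library was set beside its label. BRCA2 was at 514 to 1111 normalised counts in the 10 BRCA2-proficient libraries and 71.4 to 225 in the 12 BRCA2-deficient ones, and CTNNB1 (β-catenin) was at 977 to 2217 with its siRNA against 5206 to 8669 without. A score was made from 942 genes called higher and 1008 called lower with GSK3i in BRCA2-deficient cells with either siRNA (more highly expressed genes, the members left out). The library labelled BRCA2-proficient siβ-catenin replicate 2 scored 0.71. That is just below the other BRCA2-proficient libraries labelled with GSK3i (0.757 to 1.03, the next library left out). The BRCA2-deficient libraries with GSK3i, which were used to choose the score genes, scored 0.345 to 0.903. The library labelled BRCA2-proficient GSK3i siβ-catenin replicate 2 scored -0.755, near the untreated BRCA2-proficient libraries (-0.727 and -0.740). The remaining BRCA2-proficient siβ-catenin library, replicate 3, scored -0.181, between the groups. Samples were kept under their labels, and the comparisons of BRCA2-proficient cells with siβ-catenin are given with and without both libraries. Library totals were 18.9 to 29.3 M counts. Most markers of other cell types were near absent. ITGAM was at 38.7 to 260 normalised counts, DCN at 17.0 to 44.3 and PDGFRB at 2.68 to 56.3. Haematopoietic markers (9 of 10 in the table) summed to 2.13 to 13.7 CPM (counts scaled to library size), with PTPRC at 0 to 2 counts, and 5 fibroblast markers summed to 1.13 to 4.14. In BRCA2-proficient cells all 3 marker sums were lower with GSK3i than untreated. The haematopoietic sum was at 2.13 to 3.18 against 5.66 to 5.84 CPM, with most reads in ITGAM, and the fibroblast sum at 1.13 to 1.34 against 1.96 to 2.17 CPM. That of KRT8, KRT18, KRT7 and VIM was at 1290 to 1500 against 1840 to 1940 CPM. Most of its reads were in VIM, which was not called with GSK3i (-0.15 and -0.40 in BRCA2-proficient and BRCA2-deficient cells). In BRCA2-deficient cells the fibroblast sums overlapped (1.25 to 1.63 with GSK3i, 1.53 to 3.17 untreated), and the other sums did not. With GSK3i, DESeq2 called ITGAM (-1.08 and -0.82), PDGFRB (-2.22 and -2.37), KRT8 (-1.15 and -1.31) and KRT7 (-1.44 and -1.39) lower in BRCA2-proficient and BRCA2-deficient cells. Their part in the results was not tested. In bulk libraries, fewer cells expressing a gene and less RNA per cell cannot be told apart.

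**Figure D1:**
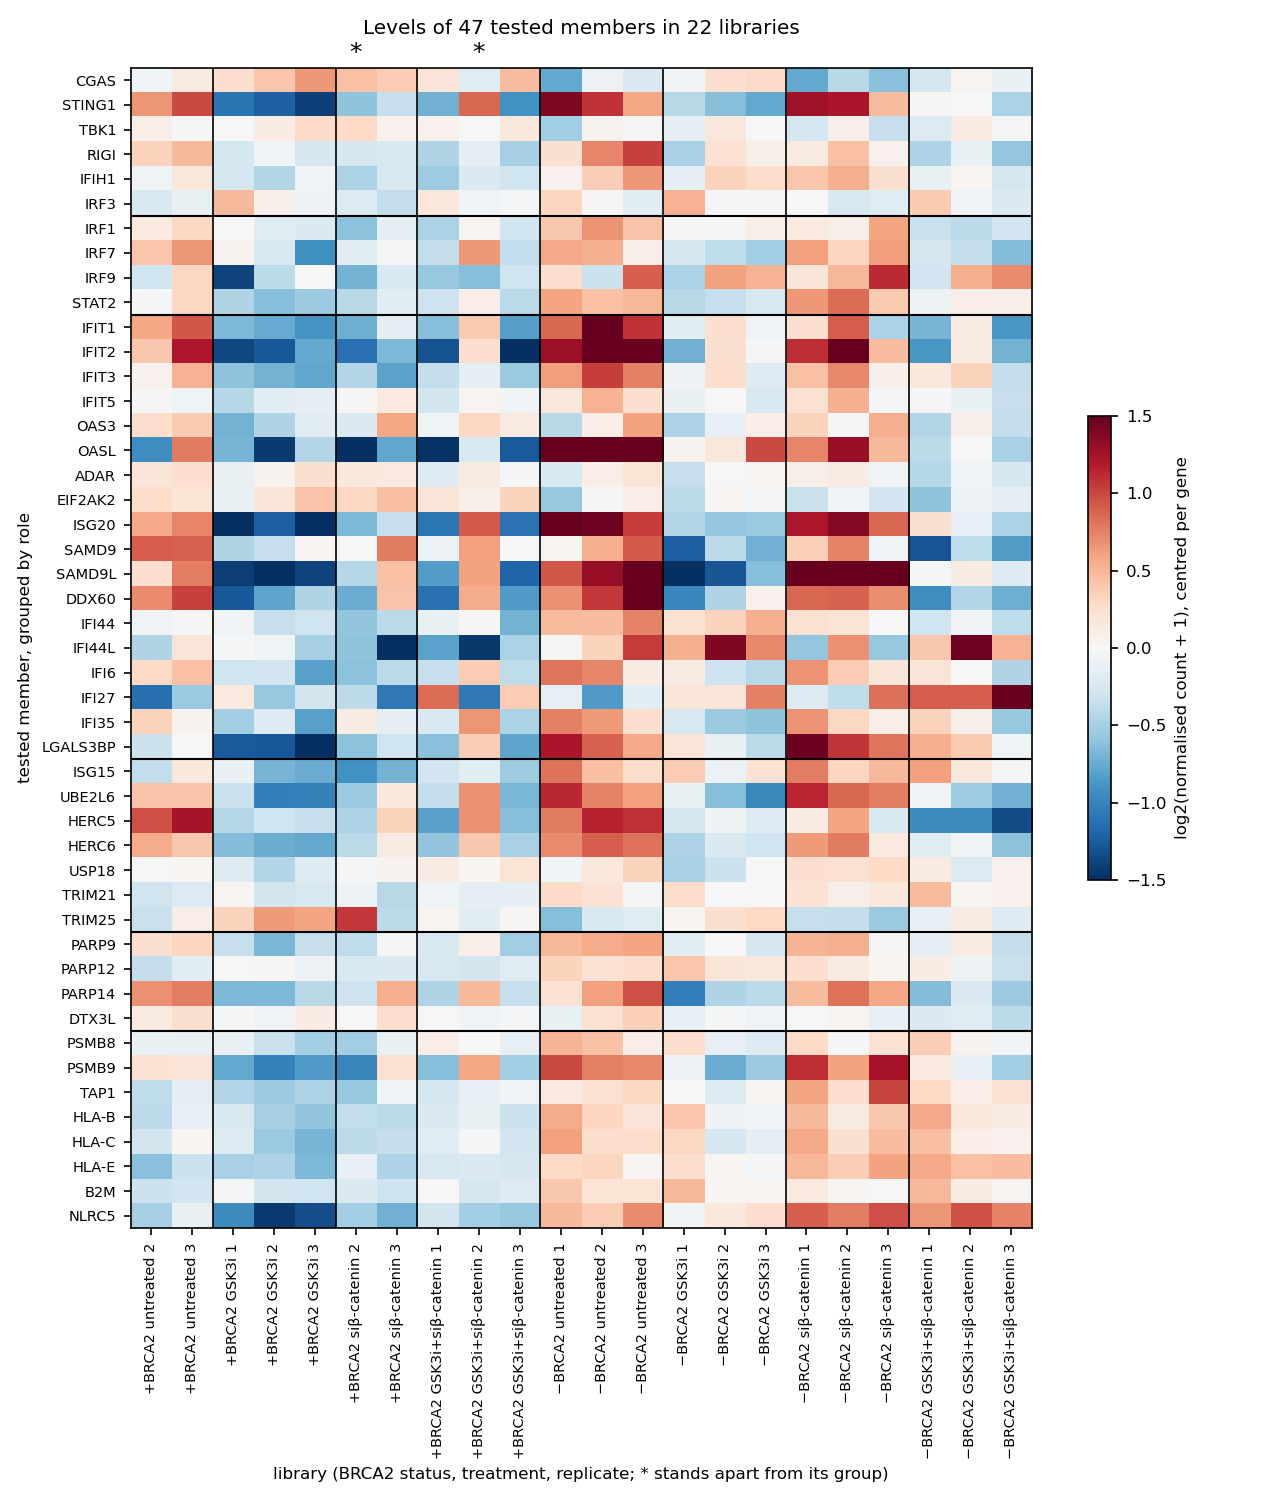
Levels of the 47 tested genes (rows, grouped by role) in 22 libraries (columns), as log2(normalised count + 1) centred on each gene's mean, with colours cut at -1.5 and 1.5. STING1, STAT2, IRF7 and many antiviral genes were below their mean in most libraries with GSK3i, while the HLA-B and HLA-E rows separated BRCA2-deficient from BRCA2-proficient libraries. The asterisks mark both libraries that went against their labels.

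The response element shared by many of these genes is shown first, since it was found in promoters of genes that fell and of genes that did not. RefSeq promoter windows (GRCh38.p14, 250 bases before to 50 after the start site) were at hand for 44 of the 56 genes. The ISRE core (GAAA, any 2 bases, GAAA), searched on both strands, was in a window of 27 of these (61.4%), against 4.38% of 27305 genes with a window. The GAS motif TTCNNNGAA was in 11 (25.0%, against 9.38% of all genes) and the TCF motif TCAAAG, which is bound by the partners of β-catenin, was in 7 (15.9%, against 15.5%). The genes were chosen as interferon targets, so that the ISRE share describes the choice. Below are 30-base stretches with the ISRE core in capitals, 5′ to 3′ on the strand named. The first group is of genes called lower with GSK3i in both BRCA2 backgrounds.
IFIT1, chr10:89392497-89392526 (minus strand): accgaaagggGAAAGTGAAActaaagctag
IFIT3, chr10:89332468-89332497 (minus strand): aaggggaaagGAAAGTGAAActgatggaac
ISG20, chr15:88638937-88638966 (plus strand): taacaaactaGAAACTGAAAcagggtcggg
DDX60, chr4:168318821-168318850 (minus strand): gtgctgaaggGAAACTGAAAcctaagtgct
PARP14, chr3:122680800-122680829 (plus strand): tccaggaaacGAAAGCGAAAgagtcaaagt
The second group is of genes called in neither background.
IFIT5, chr10:89414513-89414542 (minus strand): gtaagcttcaGAAACCGAAActtaatagaa
ISG15, chr1:1013380-1013409 (plus strand): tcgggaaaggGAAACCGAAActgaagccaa
EIF2AK2, chr2:37156967-37156996 (minus strand): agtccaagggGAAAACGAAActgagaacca
B2M, chr15:44711369-44711398 (plus strand): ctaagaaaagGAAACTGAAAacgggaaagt
The last is 1 stretch that lies in the windows of both PARP9, which was called lower, and DTX3L, which was not. Both genes start there and run in opposite directions.
PARP9 and DTX3L, chr3:122564322-122564351 (plus strand): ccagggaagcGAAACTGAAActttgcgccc
The ISRE core was in 10 of the 17 genes with a window that were lower with GSK3i in both backgrounds (58.8%) and in 13 of the 19 called in neither (68.4%). It was in 3 of 5 genes too low to test. A match of letters is not a measured binding site.

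GSK3 inhibition lowered STING1, STAT2, IRF7 and a large share of the antiviral and ISG15-conjugating genes, and left most of antigen presentation without a call. In BRCA2-proficient cells 22 of 47 tested genes were called lower (46.8%, against 14.2% of all 16771 genes tested) and 1 higher (2.13%, against 11.8%). In BRCA2-deficient cells 21 were lower (44.7%, against 13.8%) and 1 higher (2.13%, against 11.6%). With siβ-catenin in BRCA2-deficient cells, GSK3i still gave 18 lower (38.3%, against 11.5%) and 2 higher (4.26%, against 8.56%). Calls needed an adjusted p under 0.05 from DESeq2 and a log2 fold change of more than 0.5 in size. The median log2 fold change of the 47 genes was -0.57, -0.42 and -0.40 in these comparisons, and that of all genes tested -0.0021, 0.025 and 0.013. No library is shared between the 3 comparisons, and 15 of the 47 genes (31.9%) were called lower in all of them, against 7.62% of all genes. With control siRNA alone, 20 (42.6%) were lower in both backgrounds, against 10.3%. The 15 were STING1, RIGI, IRF7, STAT2, IFIT2, ISG20, SAMD9, SAMD9L, DDX60, LGALS3BP, UBE2L6, HERC5, HERC6, PARP14 and PSMB9.

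**Figure D2:**
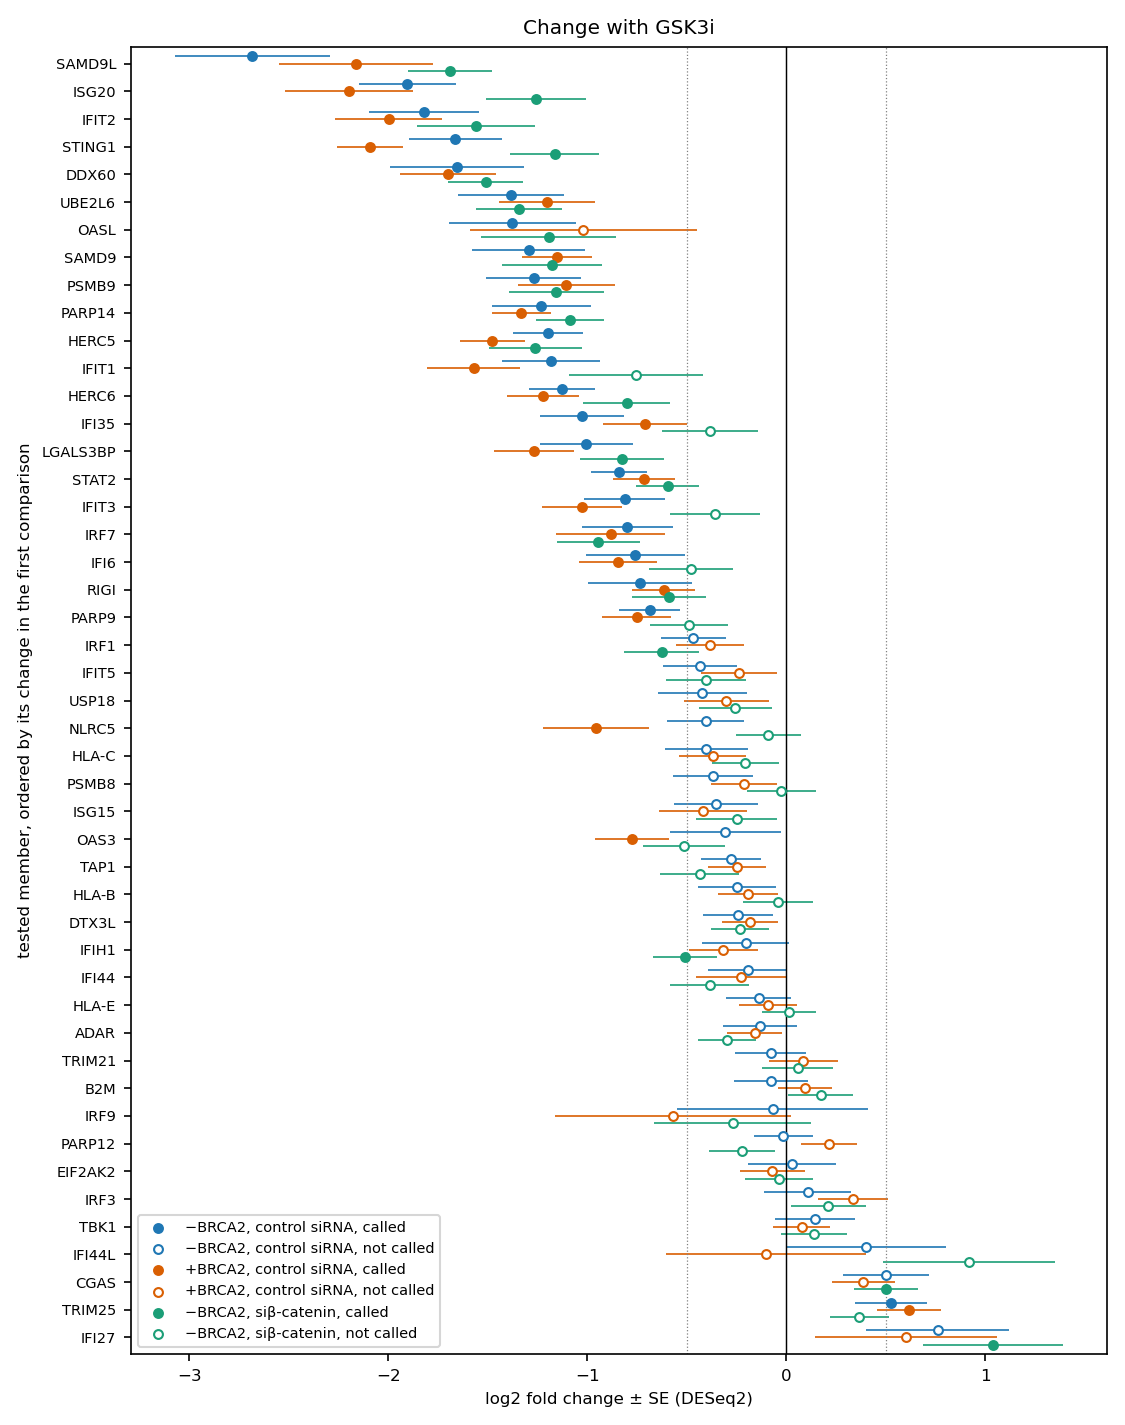
Log2 fold change with GSK3i (x axis, ± SE from DESeq2) of the 47 tested genes (y axis) in BRCA2-deficient cells with control siRNA, BRCA2-proficient cells with control siRNA and BRCA2-deficient cells with siβ-catenin. Filled points were called. SAMD9L, ISG20, IFIT2 and STING1 lie furthest to the left in BRCA2-deficient cells with control siRNA, and TRIM25 is called to the right in both control siRNA comparisons.

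**Figure D3:**
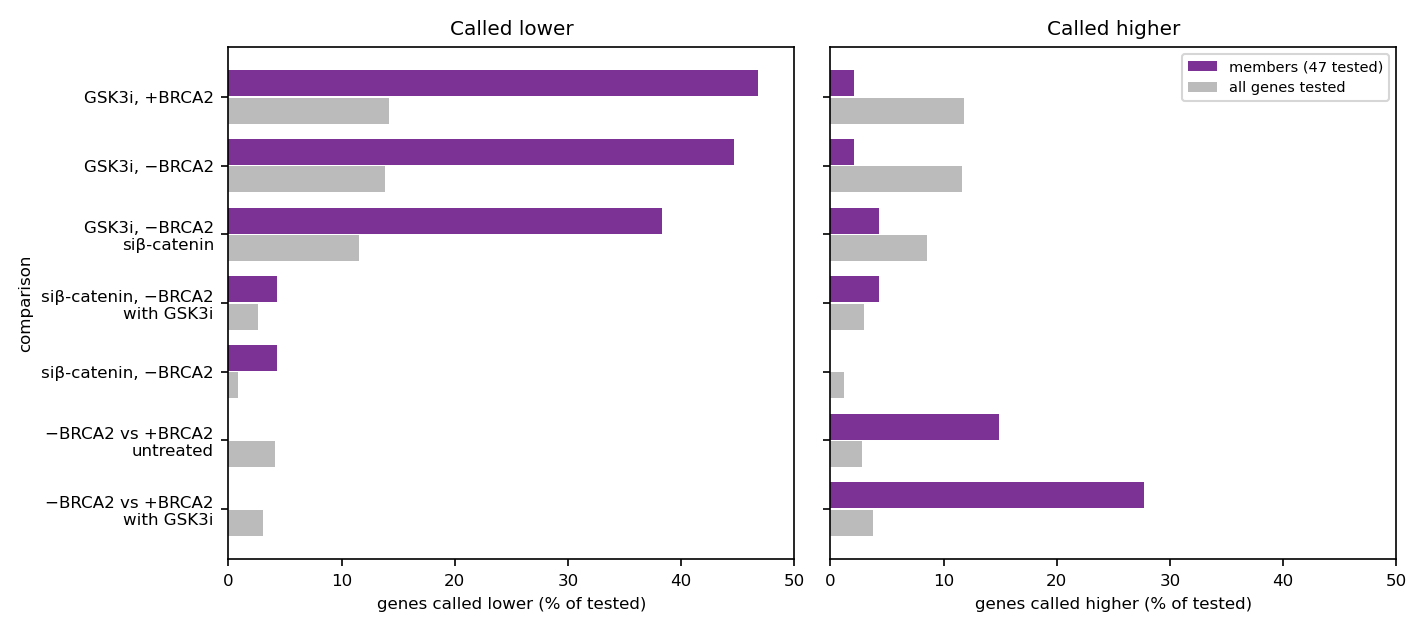
Share of genes called lower (left) and higher (right), as a percentage of those tested, for the 47 genes and for all genes in 7 comparisons. The share called lower with GSK3i was 38.3% to 46.8% of the 47 genes and 11.5% to 14.2% of all genes.

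Among the sensors, the adaptor of the DNA route fell and its enzyme was not called lower. STING1 (ENSG00000184584, GRCh37 chr5:138855118-138862520, minus strand) was at 1761 and 2216 normalised counts in untreated BRCA2-proficient libraries and 518, 476 and 422 with GSK3i. In BRCA2-deficient cells it was at 2938, 2363 and 1670.0 untreated and 836, 717 and 653 with GSK3i. Every library with GSK3i was below every untreated one, and STING1 fell in both backgrounds on the log2 scale (-2.09 ± 0.16, adjusted p = 1.2e-34 by DESeq2, and then -1.66 ± 0.23, adjusted p = 5.6e-11). Here and below the ± gives the SE of the log2 fold change, and of 2 values the first is that of BRCA2-proficient cells. CGAS (ENSG00000164430, GRCh37 chr6:74123238-74162020, minus strand) went from 1159.8 and 1332 to 1438, 1615 and 1893 normalised counts and, in BRCA2-deficient cells, from 712, 1134 and 1044 to 1179, 1440.4 and 1471. The groups did not overlap, yet the differences of 0.39 ± 0.16, adjusted p = 0.042, and 0.50 ± 0.22, adjusted p = 0.066, were not called. With siβ-catenin in BRCA2-deficient cells, CGAS was called higher by a narrow margin (0.50 ± 0.16, adjusted p = 0.012), and it was called in 5 of 11 alternatives. It was not called with edgeR, TMM factors or one model over all 8 groups, each with a fold just under the threshold (adjusted p = 0.035, 0.014 and 0.038), or without the siβ-catenin library 1 or 3 or the library 2 with both. An exon of CGAS overlaps DDX43 on the other strand over 180 bases, and the strand setting of the counting is not stated.

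Of the RNA sensors, RIGI fell in both backgrounds and IFIH1 in neither with control siRNA. In BRCA2-proficient cells RIGI was at 782 and 864 normalised counts untreated and 514, 599.6 and 515 with GSK3i (-0.62 ± 0.16, adjusted p = 0.00072), and it was at 726, 1027 and 1257 and 439, 714 and 656 in BRCA2-deficient cells (-0.74 ± 0.26, adjusted p = 0.021). These calls were lost without the untreated BRCA2-proficient library 3 (adjusted p = 0.091), without the untreated BRCA2-deficient library 2 or 3 (0.11 and 0.14) or the BRCA2-deficient GSK3i library 1 (0.081), and with edgeR in BRCA2-deficient cells (0.052). IFIH1 differed by -0.32 ± 0.17 and -0.20 ± 0.22 and was called lower in BRCA2-deficient cells with siβ-catenin (-0.51 ± 0.16, adjusted p = 0.01), a call lost without the siβ-catenin library 1 or 2 or the library 3 with both. That of RIGI there (-0.59 ± 0.19) was lost without the siβ-catenin library 2 or the library 3 with both. The kinase gene TBK1 (0.08 ± 0.14 and 0.14 ± 0.20) and IRF3 (0.34 ± 0.17 and 0.11 ± 0.22) were not called in any of the 3 GSK3i comparisons. IRF3 shares 734 exon bases with BCL2L12 on the other strand.

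Among the transcription factors, STAT2 and IRF7 fell. STAT2, the STAT that is particular to the interferon complex, was at 1181 and 1493 normalised counts untreated and 876, 773 and 822 with GSK3i in BRCA2-proficient cells, and at 1804, 1629 and 1696 and 900.4, 947 and 1019 in BRCA2-deficient cells. The groups did not overlap in either background (-0.72 ± 0.16, adjusted p = 4.4e-05, and -0.84 ± 0.14, adjusted p = 1.2e-07). IRF7, which amplifies the interferon response, was at 226 and 268 and 176, 142 and 89.1 in BRCA2-proficient cells and at 249.9, 245 and 179 and 141, 129 and 118 in BRCA2-deficient cells (-0.88 ± 0.27, adjusted p = 0.0057, and -0.80 ± 0.23, adjusted p = 0.0031). The BRCA2-proficient calls of STAT2 (adjusted p = 0.059) and IRF7 (0.18) were lost without the untreated library 3, and in BRCA2-deficient cells that of IRF7 (0.059) without the untreated library 2. With siβ-catenin in BRCA2-deficient cells STAT2 (-0.60 ± 0.16) and IRF7 (-0.94 ± 0.21) were lower too, STAT2 by -0.48 without the siβ-catenin library 2, which ended its call. IRF1 differed by -0.38 ± 0.17, adjusted p = 0.07, and -0.47 ± 0.16, adjusted p = 0.02, and was called in BRCA2-deficient cells with siβ-catenin (-0.63 ± 0.19, adjusted p = 0.0063). That call was lost without the siβ-catenin library 3 (-0.45, adjusted p = 0.070). IRF9 had 9.32 to 57.3 normalised counts, was called in none of the 3, and overlaps another gene on its own strand over 1544 exon bases.

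The antiviral effectors ISG20 and SAMD9L had the largest fitted falls of the 47 genes with control siRNA. Of the 18 tested, 11 were called lower in each background with control siRNA and 7 in BRCA2-deficient cells with siβ-catenin. ISG20, an exonuclease that degrades RNA, went from 142 and 159 to 30.3, 39.8 and 29.3 normalised counts in BRCA2-proficient cells (-2.20 ± 0.32, adjusted p = 3.3e-10). In BRCA2-deficient cells it went from 279.7, 263 and 196 to 69.9, 63.7 and 64.4 (-1.90 ± 0.24, adjusted p = 4.8e-13). All libraries with GSK3i were far below the lowest untreated one in their background. SAMD9L, which restrains poxviruses and cell growth, was at 87.1 and 125 and 26.8, 18.2 and 27.1 in BRCA2-proficient cells (-2.16 ± 0.39, adjusted p = 3.6e-07), and 139, 182 and 287 and 18.3, 29.2 and 46.5 in BRCA2-deficient cells (-2.68 ± 0.39, adjusted p = 2.4e-10). Its neighbour and paralogue SAMD9 fell too (-1.15 ± 0.18 and -1.29 ± 0.28). The helicase gene DDX60 fell by 1.70 ± 0.24 and 1.65 ± 0.34 on the log2 scale.

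Of the IFIT genes, whose products bind foreign RNA, 3 fell and IFIT5 was not called. IFIT2 was at 327 and 575 normalised counts untreated and 95.5, 102 and 145 with GSK3i in BRCA2-proficient cells, and at 611, 921 and 894 and 150.1, 293 and 243 in BRCA2-deficient cells (-2.00 ± 0.27, adjusted p = 5.2e-12, and -1.82 ± 0.28, adjusted p = 1.7e-09). IFIT1 (-1.57 ± 0.23 and -1.18 ± 0.25) and IFIT3 (-1.03 ± 0.20 and -0.81 ± 0.20) were called lower in both backgrounds. IFIT5, in the same cluster on chromosome 10 and with an ISRE core shown above, differed by less than the threshold (-0.24 ± 0.19, adjusted p = 0.35, and -0.43 ± 0.19, adjusted p = 0.065). LGALS3BP (-1.27 ± 0.20 and -1.0 ± 0.23), IFI35 (-0.71 ± 0.21 and -1.03 ± 0.21) and IFI6 (-0.84 ± 0.20 and -0.76 ± 0.25) were also lower in both. The call of IFI35 in BRCA2-proficient cells was lost under one model over all 8 groups (adjusted p = 0.076) and without the untreated library 2 (0.18), and that of IFI6 in BRCA2-deficient cells without the untreated library 1 or 2 or the GSK3i library 2 or 3 (0.075 to 0.11). OAS3 was called only in BRCA2-proficient cells (-0.77 ± 0.19 against -0.31 ± 0.28) and OASL only in BRCA2-deficient cells (-1.38 ± 0.32 against -1.02 ± 0.57), and these differences between backgrounds did not pass the interaction test described further on. ADAR (-0.16 ± 0.14 and -0.13 ± 0.19), EIF2AK2, which encodes the kinase PKR (-0.07 ± 0.16 and 0.03 ± 0.22), IFI44 (-0.23 ± 0.23 and -0.19 ± 0.20) and IFI44L were not called. The call of OAS3 was lost without the untreated BRCA2-proficient library 3 (adjusted p = 0.053). IFI27 was above its control in all 3 comparisons (0.60 ± 0.46, 0.76 ± 0.36 and 1.04 ± 0.35) and called in the last alone, at 22.1 to 158.9 normalised counts over all libraries. That call was lost with edgeR (adjusted p = 0.060) and without the siβ-catenin library 1 or 2 or the library 3 with both.

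In the list for ISG15 conjugation and its ligases, UBE2L6, HERC5 and HERC6 fell, 3 of 7 tested, and the modifier gene ISG15 was not called. ISG15 was at 615 and 886 normalised counts untreated and 742, 490.4 and 472 with GSK3i in BRCA2-proficient cells, and at 1401, 1083 and 965 and 1037, 745 and 923 in BRCA2-deficient cells. The groups overlapped in both backgrounds (-0.42 ± 0.22, adjusted p = 0.13, and -0.35 ± 0.21, adjusted p = 0.21). The conjugating enzyme gene UBE2L6 fell by 1.20 ± 0.24 and 1.38 ± 0.27, the ligase gene HERC5 by 1.48 ± 0.17 and 1.20 ± 0.18, and HERC6 by 1.22 ± 0.18 and 1.13 ± 0.17 on the log2 scale. HERC5 was at 872 and 1053 normalised counts against 332, 364 and 353 in BRCA2-proficient cells and at 768, 999.7 and 956 against 376, 423 and 391 in BRCA2-deficient cells. The deconjugating protease gene USP18 was not called (-0.30 ± 0.21 and -0.42 ± 0.22). TRIM25, a ligase that acts on RIG-I, was the 1 gene called higher in both backgrounds (0.62 ± 0.16, adjusted p = 0.00072, and 0.53 ± 0.18, adjusted p = 0.016). TRIM21, a ligase and antibody receptor, was not called (0.09 ± 0.17 and -0.08 ± 0.18). The call of TRIM25 was lost in both backgrounds under one model over all 8 groups (adjusted p = 0.069 and 0.081), and it was lost without the untreated BRCA2-proficient library 2 (0.42, adjusted p = 0.12) or any of the BRCA2-deficient untreated libraries 1 and 2 and GSK3i libraries 2 and 3 (adjusted p = 0.054 to 0.10). The highest level of TRIM25, 9232 normalised counts, was in the library labelled BRCA2-proficient siβ-catenin replicate 2.

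PARP14 (-1.33 ± 0.15 and -1.23 ± 0.25) and PARP9 (-0.75 ± 0.17 and -0.68 ± 0.15), ADP-ribosyltransferase family genes, were called lower in both backgrounds. DTX3L, the ligase partner of PARP9, was not called (-0.18 ± 0.14, adjusted p = 0.33, and -0.24 ± 0.18, adjusted p = 0.32). PARP9 was at 683 and 724 normalised counts against 453, 358 and 456 in BRCA2-proficient cells, and DTX3L at 1115 and 1206 against 1009, 979 and 1113. PARP12 was not called (0.22 ± 0.14 and -0.01 ± 0.15). PSMB9, an immunoproteasome subunit gene, fell (-1.11 ± 0.24, adjusted p = 5.2e-05, and -1.27 ± 0.24, adjusted p = 1.8e-06), and TAP1, the peptide transporter gene that starts beside it and runs the other way, was not called (-0.25 ± 0.15, adjusted p = 0.19, and -0.28 ± 0.15, adjusted p = 0.16). PARP9 and DTX3L share 139 exon bases on opposite strands, as do PSMB8 and PSMB9.

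The rest of antigen presentation was not called with GSK3i in either background, other than NLRC5. HLA-B (-0.19 ± 0.15 and -0.25 ± 0.20), HLA-C (-0.37 ± 0.17 and -0.40 ± 0.21), HLA-E (-0.09 ± 0.14 and -0.14 ± 0.16), B2M (0.09 ± 0.14 and -0.08 ± 0.18) and PSMB8 (-0.21 ± 0.17 and -0.37 ± 0.20) kept within 0.5 of their controls. NLRC5, the transactivator of class I genes, was called lower in BRCA2-proficient cells (-0.96 ± 0.26, adjusted p = 0.0017) but not in BRCA2-deficient cells (-0.41 ± 0.20, adjusted p = 0.11), and the first call was lost without the untreated library 3 (adjusted p = 0.18). HLA genes have near-identical copies, so that uniquely mapped reads may miss part of their level.

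The response to GSK3i was then compared between BRCA2 backgrounds by an interaction term. With control siRNA, DESeq2 called 0 of the 47 genes, against 0.0345% of all genes tested. edgeR called 0, and 0 had an unadjusted p below 0.05 by DESeq2. No share of all genes at an unadjusted p is given here or below. The estimates of the difference ran from -0.54 to 0.54 with a median of 0.018, and the lowest p were those of NLRC5 (0.54 ± 0.29, unadjusted p = 0.064), PARP12 (-0.25 ± 0.17) and STING1 (0.41 ± 0.31), all with an adjusted p of 1.0. The SE of these differences, such as 0.31 for STING1, leaves room for unequal responses.

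siβ-catenin changed few of these genes in BRCA2-deficient cells. Under GSK3i, it lowered AXIN2, a β-catenin target, from 1231, 1747 and 1593 to 227, 192 and 117 normalised counts. Among the 47 genes, 2 were called higher (4.26%, against 2.95% of all genes) and 2 lower (4.26%, against 2.57%), with a median of 0.022. SAMD9L was at 18.3, 29.2 and 46.5 normalised counts with GSK3i and 71, 78.6 and 63.3 with both (1.16 ± 0.38, adjusted p = 0.039), which is still below the 139, 182 and 287 of untreated cells. NLRC5 rose (0.66 ± 0.18, adjusted p = 0.0091), HERC5 fell further (-0.90 ± 0.19, adjusted p = 0.00011) and IFI44 fell (-0.63 ± 0.20, adjusted p = 0.034). With edgeR 1 of these 4 calls, that of HERC5, was left, and that of SAMD9L was also lost under one model over all 8 groups. There was 1 call without the GSK3i library 2 or the library 2 with both, and there were 2 without the GSK3i library 1 or the library 1 or 3 with both. STING1 was at 836, 717 and 653 with GSK3i and 1130.4, 1115 and 799 with both (0.46 ± 0.20, adjusted p = 0.15).

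Without GSK3i, siβ-catenin in BRCA2-deficient cells gave 2 of 47 lower (4.26%, against 0.82%) and 0 higher by DESeq2 (against 1.21%), with 2 higher and 6 lower at an unadjusted p below 0.05, and edgeR called 0 in either direction. HERC5 (-0.82 ± 0.22, adjusted p = 0.018) and OASL (-0.96 ± 0.27, adjusted p = 0.028) were lower. Both calls were lost under one model over all 8 groups, and without the BRCA2-deficient untreated library 2 or 3 or the siβ-catenin library 1 or 3, each of which left 0 calls, and there were 4 calls without the untreated library 1. As a test of whether siβ-catenin altered the response to GSK3i in BRCA2-deficient cells, the interaction called 0 of 47 genes with DESeq2 and 0 with edgeR (background 0.486%), and 1, SAMD9L (0.98 ± 0.43, adjusted p = 0.61), had an unadjusted p below 0.05. ISG20 (0.63 ± 0.33) and IFI35 (0.63 ± 0.35) came next. The median difference was 0.13 for the 47 genes and -0.0032 for all genes tested.

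**Figure D4:**
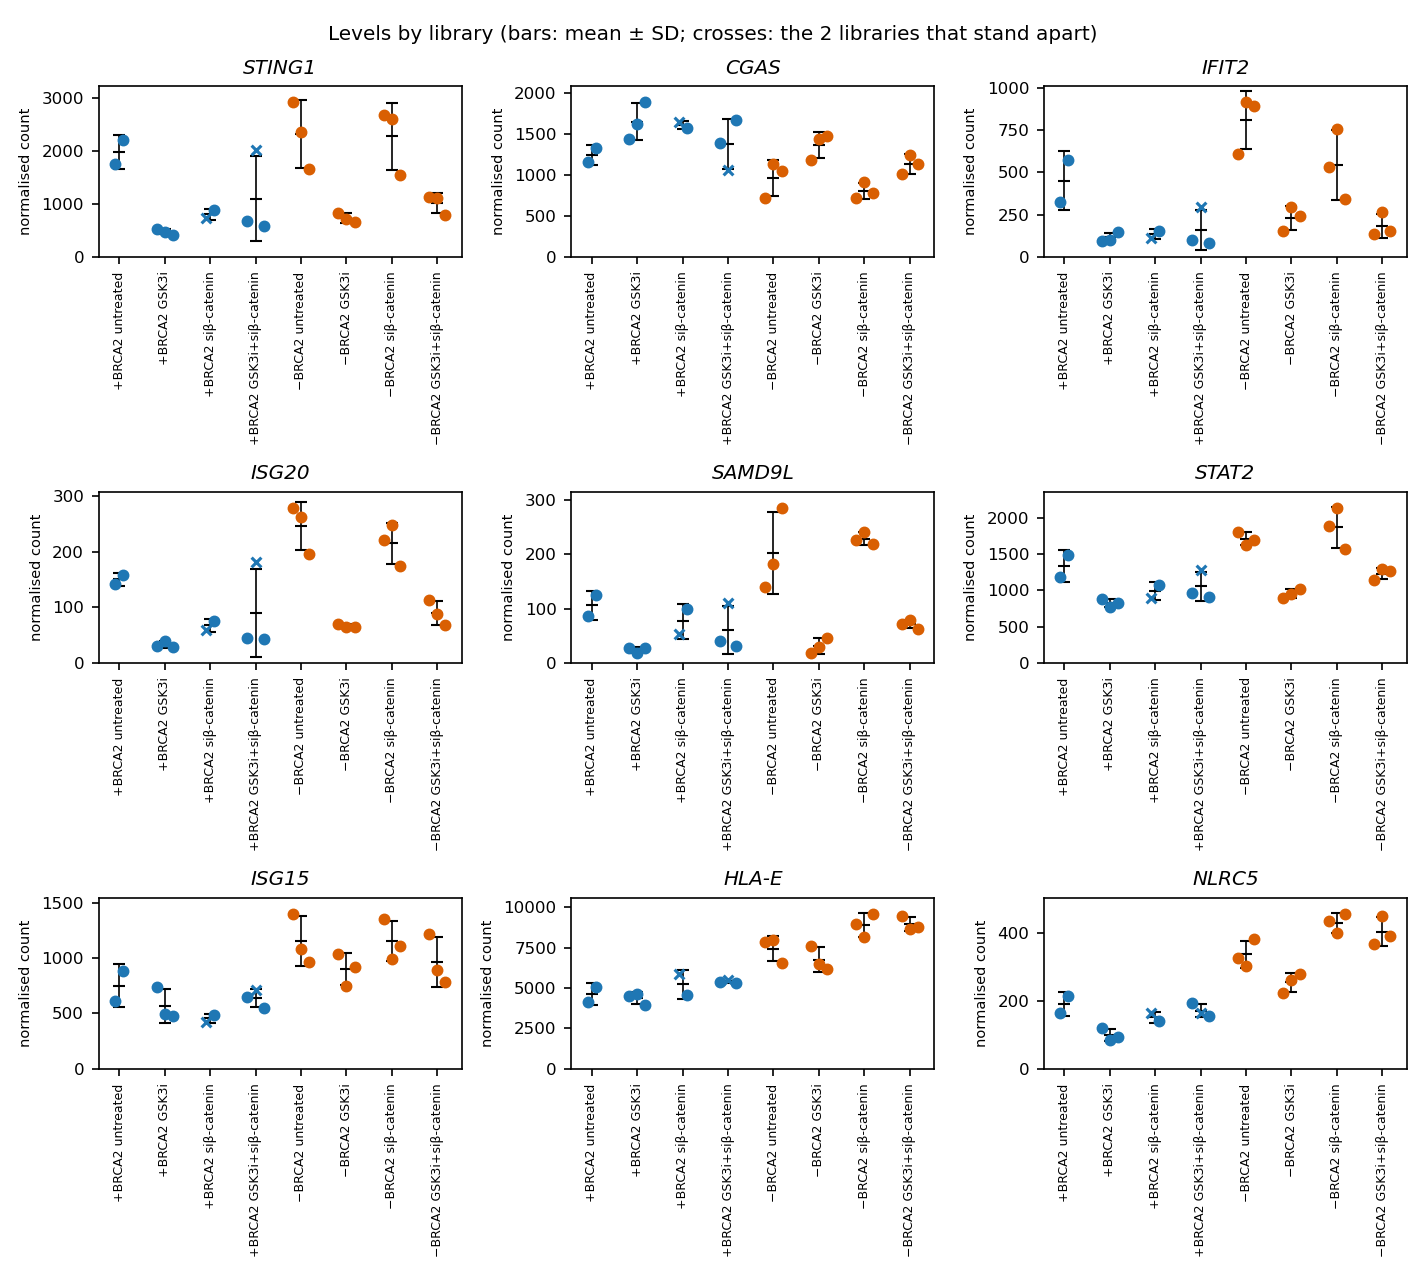
Normalised counts of 9 genes by library in 8 groups (points; blue, BRCA2-proficient; orange, BRCA2-deficient), with mean ± SD bars and crosses for both libraries that went against their labels. STING1, IFIT2, ISG20 and SAMD9L are low in every group with GSK3i apart from the cross in the BRCA2-proficient group with GSK3i and siβ-catenin. STING1 (735 and 878) and IFIT2 (114 and 155) are also low in the BRCA2-proficient siβ-catenin group without GSK3i. HLA-E separates the backgrounds in all 4 treatments.

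In BRCA2-proficient cells with siβ-catenin, the comparisons included the libraries that went against their labels. GSK3i against none gave 0 calls among 47 genes by DESeq2 and by edgeR (background 0.0529%), with 1 at an unadjusted p below 0.05, and 1 was called without the siβ-catenin library 3. Without both libraries, 1 library was left without GSK3i and its spread was taken from the others. The genes called lower in that fit were DDX60 (-1.40), HERC5 (-1.06), PARP14 (-0.93) and SAMD9 (-0.81), and no share of all genes is given for it. STING1 was at 735 and 878 normalised counts in the siβ-catenin libraries 2 and 3 and at 677, 2026 and 592 in libraries 1 to 3 with GSK3i as well. ISG20 was at 59.5 and 75 and 44.3, 181 and 43.7. In both genes the highest value was in the library labelled GSK3i siβ-catenin replicate 2. By interaction, the response to GSK3i differed between siRNAs in BRCA2-proficient cells for 10 of 47 genes, all with a positive difference (21.3%, against 3.87% of all genes higher and 3.77% lower). At an unadjusted p below 0.05, for which no share of all genes is given, 22 were higher and 2 lower, and edgeR called 0. Without both libraries, which leaves 1 siβ-catenin library without GSK3i, STING1 (1.62) and IFIT3 (1.39) were called. The effect of siβ-catenin under GSK3i was not told apart between BRCA2 backgrounds, with 0 calls by DESeq2 and by edgeR (background 0.0057%) and 4 genes at an unadjusted p below 0.05.

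siβ-catenin against control siRNA without GSK3i gave 8 lower of 47 in BRCA2-proficient cells (17.0%, against 1.96% of all genes) and 0 higher (against 1.01%), and edgeR called 0. At an unadjusted p below 0.05, for which no share of all genes is given, 0 were higher and 15 lower. Without the library that stands apart, 4 of the 8 were still called, STING1 (-1.18 ± 0.21, adjusted p = 4e-06), IFIT2 (-1.54 ± 0.37, adjusted p = 0.0026), IFIT3 (-1.12 ± 0.31, adjusted p = 0.017) and HERC5 (-0.76 ± 0.23, adjusted p = 0.036), and they then rest on 1 siβ-catenin library, whose GSK3i score was between the groups. Without the untreated library 3 there were 0 calls, without the untreated library 2 there were 2, and without the siβ-catenin library 3 there were 17. With the replicate block 3 were called. Under GSK3i, siβ-catenin gave LGALS3BP and NLRC5 higher (4.26%, against 3.18%) and TRIM25 lower (2.13%, against 1.92%). Without the library that stands apart LGALS3BP (0.72 ± 0.20, adjusted p = 0.0072) and NLRC5 (0.83 ± 0.25, adjusted p = 0.022) were still called. edgeR called 0 of them, 1 gene was called without the GSK3i library 2 or 3, and 5 were without the library 3 with both.

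BRCA2-deficient cells had higher levels of class I and some antiviral genes than BRCA2-proficient cells. Untreated, 7 of 47 genes were called higher (14.9%, against 2.77% of all genes) and 0 lower by DESeq2 (against 4.14%). With GSK3i, 13 were higher (27.7%, against 3.76%) and 0 lower (against 3.05%). At an unadjusted p below 0.05, 18 were higher and 0 lower untreated, and 19 were higher and 2 lower with GSK3i. No share of all genes at that threshold is given. The median was 0.33 untreated and 0.31 with GSK3i. These comparisons use the libraries of the GSK3i comparisons above. They share no library with each other, and HLA-E, HLA-B, OASL, NLRC5 and LGALS3BP, 5 of 47 genes (10.6%), were called in both, against 1.58% of all genes. The calls were less firm than those with GSK3i. With edgeR 1 gene was called untreated, LGALS3BP, and 5 with GSK3i, and 0 lower in either. Untreated, the calls numbered 0 without the BRCA2-proficient library 2, 3 without the BRCA2-proficient library 3, 2 without the BRCA2-deficient library 2 and 11 without the BRCA2-deficient library 3, of which 2 were lower.

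**Figure D5:**
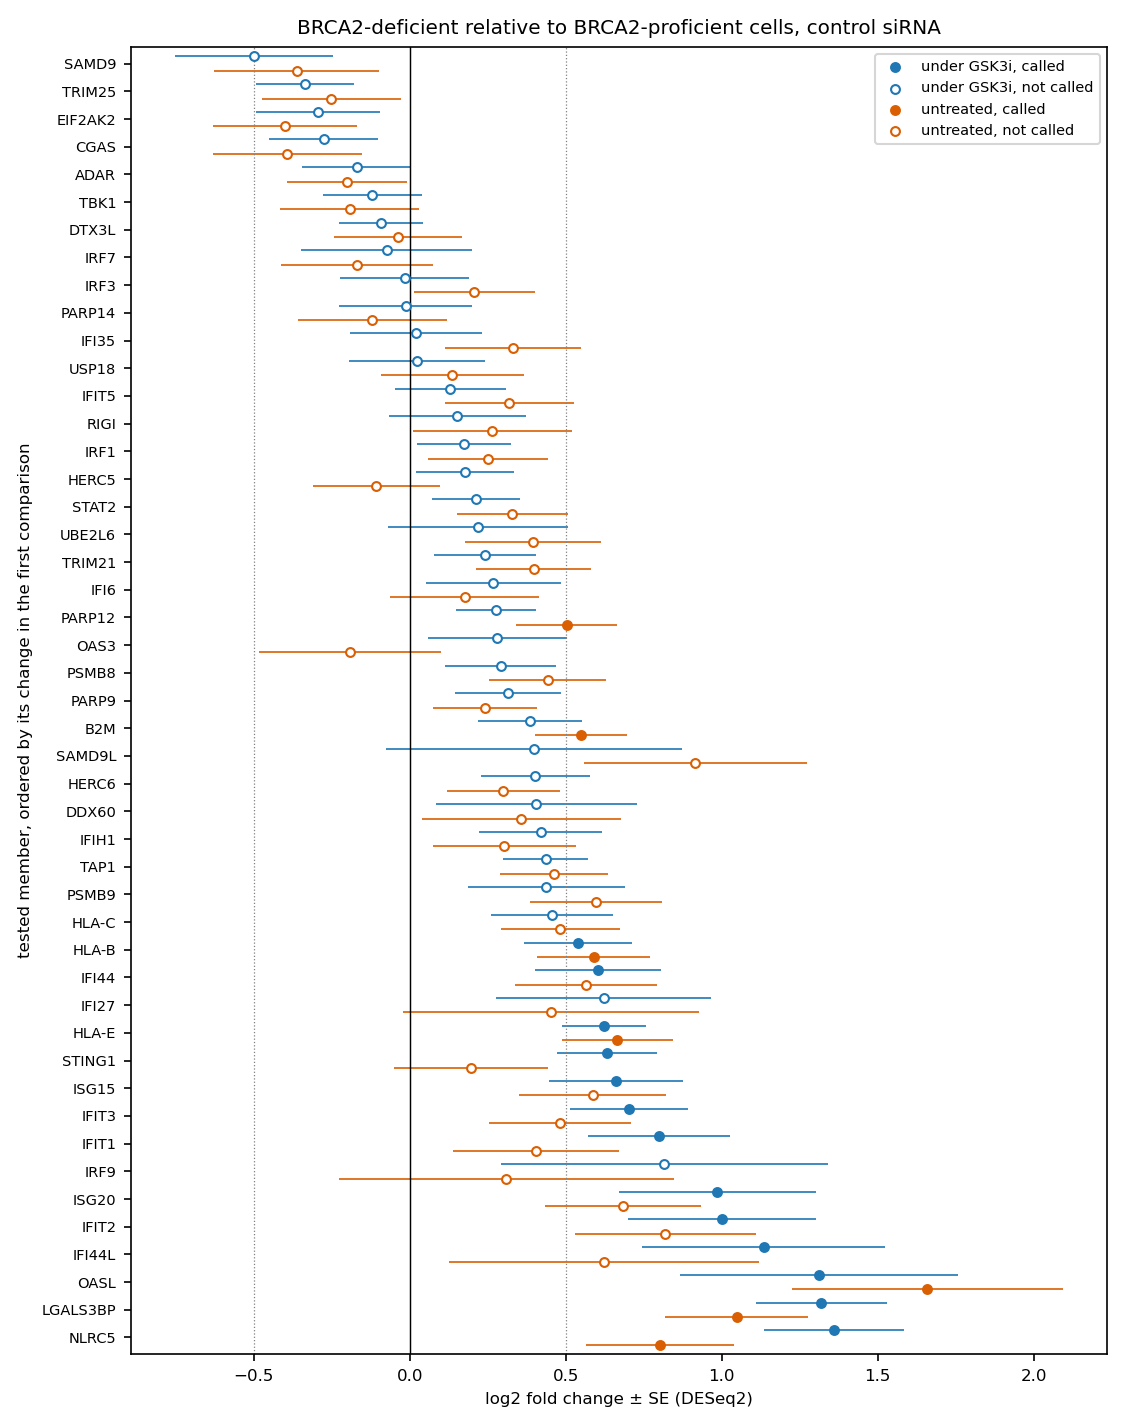
Log2 fold change of BRCA2-deficient against BRCA2-proficient cells with control siRNA (x axis, ± SE from DESeq2) of the 47 tested genes (y axis), with GSK3i and untreated. Filled points were called, and every filled point is to the right of 0. NLRC5, LGALS3BP and OASL lie furthest to the right with GSK3i.

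Antigen presentation, with 8 genes tested, held 4 of the 7 calls in untreated cells and 3 of the 13 with GSK3i. Of all genes, 2.77% and 3.76% were called higher. In untreated cells the calls of HLA-E, HLA-B, B2M and NLRC5 were kept in 6, 5, 4 and 5 of 10 alternatives. HLA-E, a class I molecule seen by natural killer cells, was at 4124 and 5088 normalised counts in untreated BRCA2-proficient libraries and 7826, 7953 and 6520.5 in BRCA2-deficient ones (0.66 ± 0.18, adjusted p = 0.0056). With GSK3i it was at 4521, 4619 and 3967 and 7614, 6467 and 6204 (0.62 ± 0.13, adjusted p = 0.00017). The backgrounds did not overlap in either treatment. HLA-B differed by 0.59 ± 0.18, adjusted p = 0.019, and 0.54 ± 0.17, adjusted p = 0.026. B2M was called untreated (0.55 ± 0.15, adjusted p = 0.006) and not with GSK3i (0.38 ± 0.17, adjusted p = 0.15). HLA-C (0.48 ± 0.19 and 0.46 ± 0.20), TAP1 (0.46 ± 0.17 and 0.44 ± 0.14), PSMB8 (0.44 ± 0.19 and 0.29 ± 0.18) and PSMB9 (0.60 ± 0.21 and 0.44 ± 0.25) were above 0 in both without a call. NLRC5 was at 165 and 215 and 326, 303 and 382 normalised counts untreated (0.80 ± 0.24, adjusted p = 0.015), and at 120.0, 85.3 and 92.5 and 225, 261 and 278 with GSK3i (1.36 ± 0.22, adjusted p = 1.6e-07). These groups did not overlap.

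Of the antiviral genes, LGALS3BP, a secreted glycoprotein gene, was at 564 and 701 and 1653, 1302 and 1052 normalised counts untreated (1.05 ± 0.23, adjusted p = 0.0003), and at 293, 292 and 211 and 811, 656 and 534 with GSK3i (1.32 ± 0.21, adjusted p = 6.2e-08). OASL was at 19.7 and 66.6 and 120.2, 149 and 150.4 untreated (1.66 ± 0.43, adjusted p = 0.0043), and at 23.3, 13.7 and 28.2 and 40.1, 43.3 and 77.8 with GSK3i (1.31 ± 0.45, adjusted p = 0.039). PARP12 was called in untreated cells alone (0.50 ± 0.16, adjusted p = 0.029). With GSK3i, IFIT1 (0.80 ± 0.23), IFIT2 (1.0 ± 0.30), IFIT3 (0.70 ± 0.19), ISG20 (0.99 ± 0.32), IFI44 (0.60 ± 0.20), IFI44L (1.14 ± 0.39) and ISG15 (0.66 ± 0.22) were called as well. Their untreated differences were 0.40 ± 0.27, 0.82 ± 0.29, 0.48 ± 0.23, 0.68 ± 0.25, 0.56 ± 0.23, 0.62 ± 0.50 and 0.59 ± 0.24, and the interaction given above did not tell these treatments apart. With GSK3i, 8, 3 and 4 genes were called without the BRCA2-proficient library 1, 2 or 3, and 11, 7 and 5 without the BRCA2-deficient library 1, 2 or 3. IFIT1, IFIT2, ISG20 and IFI44L were not called under one model over all 8 groups, nor ISG20 and IFI44L with the replicate block. HLA-E, NLRC5 and LGALS3BP were called in each of the 11 alternatives with GSK3i.

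Of the sensors, STING1 was called higher in BRCA2-deficient cells with GSK3i (0.63 ± 0.16, adjusted p = 0.0023) and not in untreated cells (0.20 ± 0.25, adjusted p = 0.71). The first call was lost under one model over all 8 groups (0.64, adjusted p = 0.26) and without the BRCA2-proficient GSK3i library 2 or 3. CGAS (-0.39 ± 0.24 and -0.28 ± 0.18), TBK1 (-0.19 ± 0.22 and -0.12 ± 0.16), RIGI (0.26 ± 0.25 and 0.15 ± 0.22), IFIH1 (0.30 ± 0.23 and 0.42 ± 0.20) and IRF3 (0.21 ± 0.19 and -0.02 ± 0.21) were not called in either treatment. Nor were the factors IRF1, IRF7, IRF9 and STAT2 (0.33 ± 0.18 and 0.21 ± 0.14). Of the 10 genes with a promoter window that were called higher in either treatment, 9 held the ISRE core. Of all 44 genes of the set with a window, 27 held it (61.4%), and the set was chosen as interferon targets. Whether these shares differ was not tested.

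With siβ-catenin, 23 genes were higher in BRCA2-deficient cells (48.9%, against 13.6% of all genes) and 3 lower (6.38%, against 13.8%). With the replicate block 15 were higher and 1 lower, and no share of all genes is given for that fit. Leaving out the BRCA2-proficient library that stands apart left a single BRCA2-proficient library, and calls in that fit are not counted here. In the fit without the library that stands apart, NLRC5 (1.58), LGALS3BP (1.41), ISG15 (1.21), IFIT2 (1.78) and HLA-E (0.92) were higher. CGAS (-1.01) and EIF2AK2 (-0.71) were lower in that fit, and the call of EIF2AK2 was lost with the replicate block. With GSK3i and siβ-catenin, 4 were higher (8.51%, against 3.38%) and 1 lower (2.13%, against 4.36%). These were NLRC5 (1.23 ± 0.21, adjusted p = 4.8e-07), HLA-E (0.73 ± 0.14, adjusted p = 1.9e-05), IFI44L and HLA-B, with SAMD9 lower (-1.01 ± 0.28, adjusted p = 0.0066). There were 3 calls without the BRCA2-deficient library 2. Without the library that stands apart 9 were higher and 2 lower, with no share of all genes given for that fit. STING1 turned there from -0.12 ± 0.59 to 0.66 ± 0.20, adjusted p = 0.015. HLA-E, HLA-B and NLRC5 were called higher in BRCA2-deficient cells in all 4 treatments by DESeq2, with and without the libraries that stand apart, but not under every alternative. With the replicate block HLA-B was not called in 3 of the 4, untreated (0.50), with siβ-catenin (0.64, adjusted p = 0.071) and with both (0.50), and with both it was called in 3 of 12 alternatives. With edgeR it was called with siβ-catenin alone, and HLA-E and NLRC5 were not called untreated (adjusted p = 0.070 and 0.089).

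A wider list of 86 genes around the pathway, of which 82 were in the table, showed which neighbours moved. With GSK3i, 25 of 67 tested were lower in BRCA2-proficient cells (37.3%, against 14.2% of all genes). In BRCA2-deficient cells 21 of 67 were lower (31.3%, against 13.8%). Those higher numbered 4 and 3, where 11.8% and 11.6% of all genes were higher. With siβ-catenin in BRCA2-deficient cells 19 of 69 were lower (27.5%, against 11.5%) and 1 higher (against 8.56%). The ligand and receptor genes had 0 calls among 7 tested in each of these 3 comparisons by DESeq2, with 2, 1 and 1 at an unadjusted p below 0.05. SOCS3, an inhibitor of JAK signalling, fell by 1.94 ± 0.17 and 1.83 ± 0.27 on the log2 scale. GBP2 (-2.25 ± 0.29 and -1.83 ± 0.24) and GBP1 (-1.53 ± 0.34 and -2.42 ± 0.29), interferon-γ-inducible GTPase genes, and HELZ2 (-1.10 ± 0.16 and -0.95 ± 0.21) fell too. PNPT1 (0.90 ± 0.13 and 0.92 ± 0.15), LAP3 (0.65 ± 0.12 and 0.56 ± 0.14) and TAP2 (0.71 ± 0.14 and 0.59 ± 0.16) rose in both backgrounds.

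In the same list, siβ-catenin under GSK3i in BRCA2-deficient cells gave 5 of 67 higher (7.46%, against 2.95% of all genes). It gave 1 lower (1.49%, against 2.57%). GBP1 (1.94 ± 0.26, adjusted p = 5.3e-11), GBP2 (1.20 ± 0.28, adjusted p = 0.0013) and IL10RB (0.75 ± 0.20, adjusted p = 0.0052) had the lowest adjusted p among those higher, and TRIM14 was lower (-0.61 ± 0.17, adjusted p = 0.0093). BRCA2-deficient cells had 5 of 68 higher untreated (7.35%, against 2.77% of all genes) and 4 of 65 with GSK3i (6.15%, against 3.76%). In each treatment 2 were lower, where 4.14% and 3.05% of all genes were lower. GBP2 (1.21 ± 0.23, adjusted p = 1.8e-05, and 1.64 ± 0.30, adjusted p = 5e-06), APOL1 (1.14 ± 0.29 and 1.25 ± 0.42) and NLRX1 (0.73 ± 0.22 and 0.85 ± 0.19) were higher, and PNPT1 (-0.69 ± 0.17 and -0.66 ± 0.14) and TRIM14 (-0.60 ± 0.19 and -0.58 ± 0.16) lower, in both treatments.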

How the data were processed

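RNA was measured by poly(A)-selected, stranded paired-end sequencing in 22 libraries. The deposited values are raw counts per gene, made by the authors by alignment to GRCh37, removal of duplicates and counting of uniquely mapped reads. The submitters' processing notes name HISAT2 2.0.4, SAMtools 1.4, Picard 1.9.2 and featureCounts 1.5.0, and the study's reporting summary gives other versions of HISAT2, Picard and featureCounts. Which annotation release was used, and whether reads were counted by strand, is not given in the sources used here. Groups were taken from the labels, and all 22 columns were used. DESeq2 1.42.0 (R 4.3.3; Wald test, median-of-ratios factors, no shrinkage, Benjamini-Hochberg adjustment over all genes tested) was run on the libraries of each comparison. Pairwise comparisons left out genes with fewer than 10 counts in more than 3 libraries, and interactions needed 10 counts in at least 3 libraries. Alternatives were edgeR 4.0.16 (quasi-likelihood test), TMM factors, no count filter, one model over all 8 groups, the replicate block, each library left out, and, chosen after seeing the data, both libraries that stand apart left out. In all 7 comparisons with 3 shared replicate numbers, libraries of a number deviated together (r of 0.141 to 0.868). In the 5 with 2 shared numbers, r ran from -0.418 to 0.259. The main fits did not pair libraries by replicate number. Their SE and p-values therefore leave out any such pairing, which only the replicate block takes in. For some comparisons the fits were also run on simulated counts. These were drawn without deviations shared by replicate number, so that they do not test the effect of such pairing. Genes named are called members (at most 12 in each direction, by adjusted p), core members, the 3 lowest p of an interaction, and the 3 lowest adjusted p in each direction of the wider list, each with its value in the other background or treatment; other members' values are given by the rule that all are accounted for. The values of 1 gene that the rule names in the wider list are not reported here. The members and lists were chosen with earlier results of these data known. RefSeq promoter windows (GRCh38.p14) were matched by symbol. Libraries held 18.9 to 29.3 M counts, and counts of a few reads carry large counting error.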

Additional observations from a re-analysis of the deposited data

Results flagged for a closer look

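A group of values was singled out because the effect of GSK3i in BRCA2-proficient cells differed between control siRNA and siβ-catenin by the interaction test (DESeq2, 10 of 47 genes called). The difference, on the log2 scale, was 2.55 for STING1, 2.62 for ISG20, 2.25 for IFIT2, 1.72 for IFIT1, 1.31 for IFIT3, 1.48 for LGALS3BP, 1.28 for IFI6, 1.2 for HERC6, 1.13 for NLRC5 and 0.817 for STAT2. The comparison includes the libraries labelled BRCA2-proficient siβ-catenin replicate 2 and BRCA2-proficient GSK3i siβ-catenin replicate 2, which went against their labels. Without both libraries 2 genes were called, STING1 (1.62) and IFIT3 (1.39), and the others were at 1.43 for ISG20, 1.22 for IFIT2, 0.97 for IFIT1, 0.87 for LGALS3BP, 0.88 for IFI6, 0.57 for HERC6, 1.27 for NLRC5 and 0.52 for STAT2. edgeR called 0. There were 2 calls without the untreated library 2, 0 without the untreated library 3, 3 and 2 without the GSK3i library 2 or 3, 1 and 20 without the siβ-catenin library 2 or 3, and 18 without the GSK3i siβ-catenin library 3.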

How the results depend on the processing

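Counts of members called were within 1.5 times of those reported for GSK3i with control siRNA in both backgrounds, and with siβ-catenin in BRCA2-deficient cells, under each alternative run. Leaving out 1 library gave 18 to 25, 18 to 24 and 17 to 22 calls there, and the replicate block gave 25, 23 and 23. With edgeR, calls numbered 0 for siβ-catenin under GSK3i and without it in BRCA2-proficient cells, 1 and 0 in BRCA2-deficient cells, 1 for BRCA2 loss untreated, 5 with GSK3i, 2 with both, and 0 for the interaction of GSK3i with siβ-catenin in BRCA2-proficient cells. One model over all groups gave 5 for siβ-catenin under GSK3i and 2 without it in BRCA2-proficient cells, 0 without GSK3i in BRCA2-deficient cells, and 8 for BRCA2 loss with GSK3i. The replicate block gave 3 for siβ-catenin without GSK3i in BRCA2-proficient cells and 16 for BRCA2 loss with siβ-catenin, and left the other counts within 1.5 times. Without the libraries that stand apart, calls numbered 4 for GSK3i under siβ-catenin and 4 for siβ-catenin in BRCA2-proficient cells, 11 for BRCA2 loss with GSK3i and siβ-catenin, and 2 for that interaction, and STING1 in the BRCA2 comparison with both agents turned to 0.66. Leaving out 1 library moved that STING1 value from -0.42 to 0.66. It also gave 0 to 1 calls for GSK3i with siβ-catenin in BRCA2-proficient cells, 1 to 5 and 1 to 3 for siβ-catenin under GSK3i in BRCA2-proficient and BRCA2-deficient cells, 0 to 17 and 0 to 4 without GSK3i, 0 to 11 for BRCA2 loss untreated, 3 to 11 with GSK3i, 3 to 11 with both agents, and 0 to 20 for the interaction in BRCA2-proficient cells. The counts of these refits are not set beside shares of all genes, and the cause of these shifts was not tested. In BRCA2-proficient cells with 2 libraries in a group, a library left out leaves 1, whose spread is taken from the other groups. IRF9, OASL and IFI44L had few reads, as did SAMD9L in its lowest libraries, and depth limits what these values show.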
